A study of Homo sapiens with 2 samples.

Results

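The mitochondrial ribosomal protein genes were compared between Seg-1 cells that received FGF-AS siRNA and Seg-1 cells that received a negative control siRNA. They were taken as all probe sets annotated to exactly 1 gene symbol that starts with MRPL or MRPS followed by a digit. A probe set is the group of short oligonucleotides that reports 1 transcript on an Affymetrix Human Genome U133 Plus 2.0 array. The rule found 142 of the 54675 probe sets, for 77 symbols of the 19775 that had such a probe set. Of these symbols 75 are protein genes, 48 named for the large subunit (MRPL, 83 probe sets) and 27 for the small subunit (MRPS, 57 probe sets). The other 2 are MRPL20-AS1, an antisense RNA gene, whose probe set read 107.1 on the control array and 105 on the other, and MRPL45P2, a pseudogene, which read 1 and 1.8; neither is counted below. A further 4 probe sets carried such a symbol beside a second gene and were given no name.

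The mitochondrial ribosome translates the few proteins encoded by mitochondrial DNA, all of them subunits of the respiratory chain and ATP synthase. Its RNAs are made inside the organelle, whereas every one of its proteins is encoded in the nucleus, made in the cytosol and imported. Many of these proteins have a counterpart in bacterial ribosomes, and the rest are particular to mitochondria. The small subunit decodes the mRNA, and the large subunit joins amino acids and releases the new chain at the inner membrane.

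One array carried RNA from Seg-1 cells given a negative control siRNA without homology to known genes, and 1 array carried RNA from Seg-1 cells given FGF-AS siRNA, directed at the RNA read from the strand opposite to the FGF2 gene. Both cultures were grown in serum-containing medium, transfected with the same lipid reagent and harvested at 72 hours. The labels give siRNA concentrations of 25 to 200 nM without saying which array had which. Seg-1 was once taken for an esophageal adenocarcinoma line and is, per the labels' protocols, the lung cancer line H460. Each group is 1 array, so replicate error could not be estimated and p-values were not computed.

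The epithelial keratin genes KRT8 (3475.7 on the control array, 3780.9 on the FGF-AS siRNA array) and KRT18 (10152.5 and 9327.2) were bright on both arrays. KRT19 read 316.5 and 311.6, whereas the adhesion genes EPCAM (34 and 43.8) and CDH1 (0.9 and 18.4) were dim. Among lung markers, KRT7 read 206.1 and 254, SFTPB 110.8 and 98, NAPSA 31.9 and 44, SFTPC 14.7 and 59.1, and NKX2-1, a defining lung factor, read 24.9 and 11.8 with a mean under the signal minimum. The fibroblast collagen COL3A1 read 316.4 and 104.6, COL1A1 164.3 and 151.6 and DCN 42.5 and 31, with COL1A2 under the minimum. The leukocyte marker PTPRC read 0.5 and 19, CD14 38.3 and 16.8 and CD3E 33.5 and 52.7, and the part of any of these in the results below was not tested. NUDT6, the gene that gives rise to FGF-AS, gave 376.9 on the control array and 104.5 on the FGF-AS siRNA array with its brighter probe set, a log2 ratio of -1.79.

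For each probe set an offset of 6.1 was added to both signals, and the log2 ratio is log2 of the FGF-AS siRNA value over the control siRNA value. Where a pair of signals is given, the control siRNA array comes first. Each gene is represented by its brightest probe set. The offset makes the ratio of a dim gene smaller than its true size. A gene counted as measured when the mean of both signals reached 23.9, the median over probe sets. All 75 protein genes passed, and all 75 also reached 145.2, the 75th percentile, so the comparison group was the 7719 genes at that level, called brighter genes here. The only error available was the disagreement between probe sets of 1 gene. Its SD was 0.36 on the log2 scale for a single probe set among brighter genes (3050 genes). For the mitochondrial ribosomal protein genes themselves it was 0.24 at that level (21 genes) and 0.32 over all their measured probe sets (31 genes). It covers neither cultures nor hybridisations. The arrays measured RNA from whole cultures, so fewer cells of a kind and less RNA per cell cannot be told apart.

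The mitochondrial ribosomal protein genes read nearly the same on both arrays. Their signals ran from 347.8 (MRPL2) to 5923 (MRPL3), both with control siRNA. The median log2 ratio was 0.10 (SD across genes 0.25), against -0.00 over brighter genes (SD 0.38) and -0.02 over all 12352 measured genes (SD 0.48). Of the 75 genes, 47 were above 0 and 28 below. That is 62.7%, where 49.4% of brighter genes and 48.1% of measured genes were above 0. Centring on the median of all probe sets gave 73.3% against 54.8% of measured genes, and quantile normalization gave 64% against 56.4%. Probe sets whose names end in _s_at or _x_at can match more than 1 transcript, and leaving these out kept 41 genes, of which 18 (43.9%) were above 0, against 48.2% of measured genes. None of the 75 differed by 2-fold, where 2.1% of brighter genes and 4.77% of measured genes did. Only MRPS6 was at least 1.5-fold higher, as were 5.75% of brighter genes and 7.96% of measured genes. Only MRPL10 was at least 1.5-fold lower, as were 5.75% of brighter genes and 9.52% of measured genes. Both directions together made 2.67% of the 75, against 11.5% of brighter genes and 17.5% of measured genes. Brighter genes began at a mean signal of 145.2, whereas no member's brightest probe set read under 347.8. The part of signal level in the smaller shares and spread of the members was not tested. In all, 65 of the 75 lay within the probe set SD of 0.36 of equal signals, and 13.3% lay beyond it, against 28.7% of brighter genes. Some of the 65 lay beyond the 0.24 of the family itself, such as MRPS35 (0.33) and MRPL24 (-0.34).

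**Figure D1:**
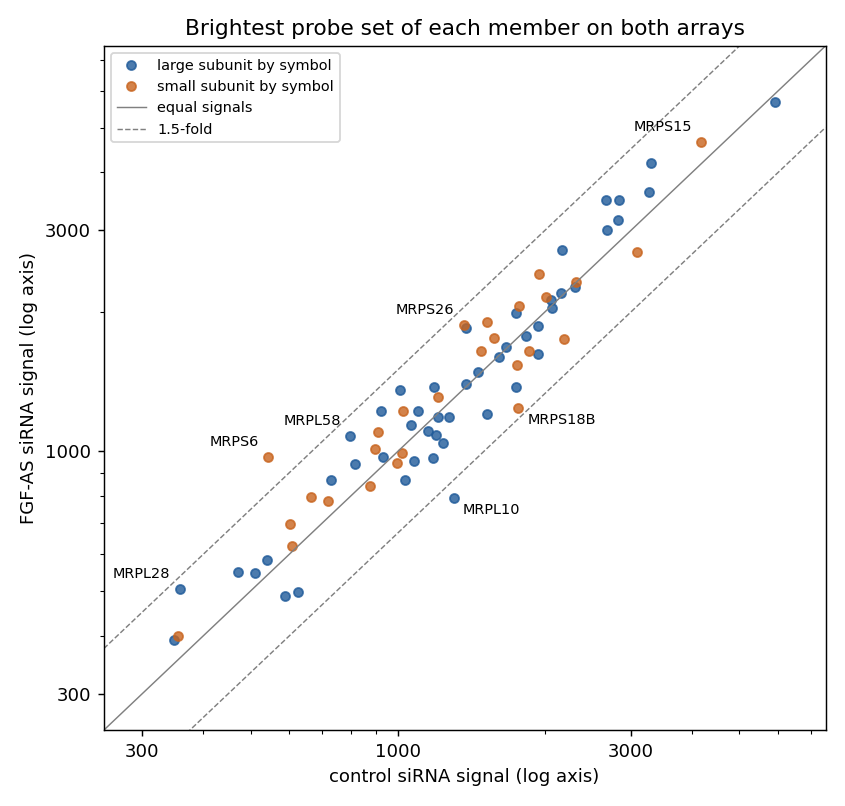
Signal of the brightest probe set of each of the 75 protein genes with control siRNA (x) and FGF-AS siRNA (y), both on log axes, 1 array each, coloured by the subunit in the symbol, with lines at equal signals and at 1.5-fold. MRPS6 (542.3 and 971.4) lies above the upper 1.5-fold line and MRPL10 (1302.8 and 793.9) below the lower one, and all other genes lie between the lines.

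Small subunit genes had a higher median than large subunit genes on these arrays. The 27 MRPS genes had a median log2 ratio of 0.15 (SD across genes 0.26), with 19 above and 8 below 0. The 48 MRPL genes had a median of 0.03 (SD across genes 0.25), with 28 above and 20 below 0. The medians differed by 0.12, and with 1 array per group this difference has no error of its own. Symbols do not follow structure throughout, since the proteins of MRPS30 and MRPS18A sit in the large subunit. Counting both genes there left the medians at 0.03 (50 genes) and 0.15 (25 genes). With probe sets ending in _s_at or _x_at left out, 25 MRPL and 16 MRPS genes could be used, and the MRPL median turned to -0.06 while the MRPS median was 0.16. Among genes whose brightest probe set has such an ending the order was the other way, with medians of 0.15 (29 MRPL genes) and 0.12 (16 MRPS genes).

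**Figure D2:**
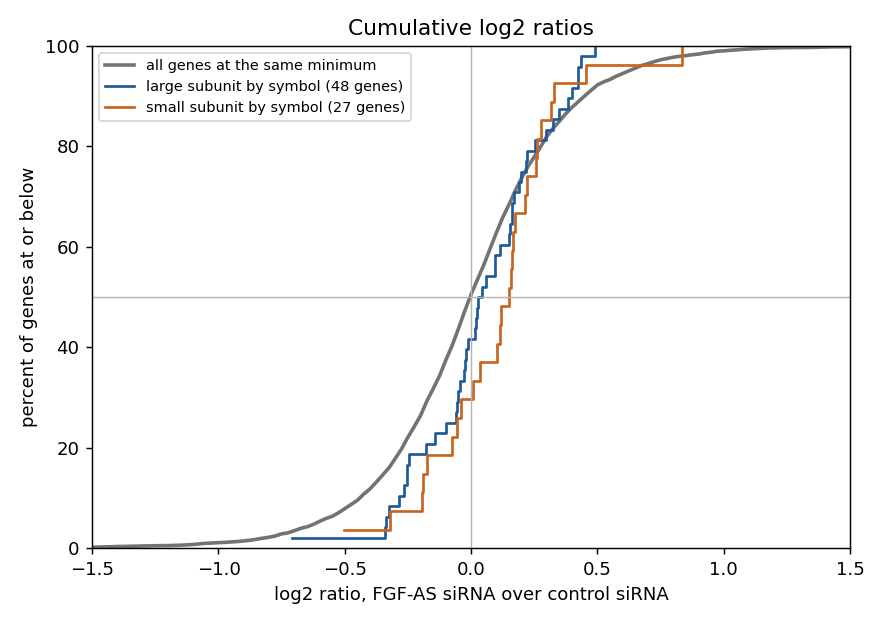
Percent of genes (y) at or below each log2 ratio (x) for the 48 MRPL genes, the 27 MRPS genes and all 7719 brighter genes. Both subunit curves are steeper than the curve of all genes, and the MRPS curve crosses 50% at 0.15 and the MRPL curve at 0.03. The brighter genes include genes dimmer than any MRPL or MRPS gene, and the part of this in the steepness was not tested.

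MRPS6 stood highest in the family. It encodes the mitochondrial counterpart of bacterial S6, a protein of the small subunit's platform. Its single probe set gave a signal of 542.3 in control cells and 971.4 in cells given FGF-AS siRNA. That is 1.78-fold higher, or 0.83 on the log2 scale. This ratio was above the probe set SD of 0.36 and at percentile 98.0 of brighter genes. No second probe set was there to compare it with, so alternatives in probe set choice could not alter the ratio. Over the other alternatives the log2 ratio ran from 0.81 to 0.89. In the RefSeq table the MRPS6 gene spans SLC5A3, the gene of a sodium-coupled inositol transporter. The brighter pair of SLC5A3 probe sets read 296.1 and 374.9, and 281.8 and 364.4, log2 ratios of 0.33 and 0.36, and the dim ones stood at 0.53 and -0.58.

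After MRPS6, the small subunit gene furthest above 0 was MRPS26, which encodes a protein particular to mitochondria, at 1363.8 and 1873.3, a log2 ratio of 0.46. Next were MRPS35, of another mitochondria-specific protein, at 1518.2 and 1905 (0.33), and MRPS2, of the counterpart of bacterial S2, at 1940.8 and 2419.9 (0.32). These 3 genes each rest on 1 measured probe set, and the last 2 were within the probe set SD of 0.36 but beyond the family's own 0.24. MRPS9, of the S9 counterpart, read 909.1 and 1102.4 (0.28).

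MRPS18B was the small subunit gene furthest below 0. It is 1 of 3 genes for proteins related to bacterial S18. Its probe sets gave similar values, 1763 and 1243.2 on one (log2 ratio -0.50) and 950.6 and 718.3 on the other (-0.40), both lower with FGF-AS siRNA. The other paralogs read the opposite way on their brightest probe sets. MRPS18A, whose protein lies in the large subunit, read 354.9 and 399.1 (0.17) and, on its second probe set, 273.1 and 353.3 (0.36). MRPS18C, which encodes the small subunit's direct S18 counterpart, read 720.9 and 782 (0.12), and its dim probe set read 30.2 and 20.8 (-0.43). Among the paralogs, then, both probe sets of MRPS18B were lower and both of MRPS18A higher. The difference between these genes rests on 1 array per group.

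MRPS16, of the S16 counterpart, was lower on both probe sets, at 2183.1 and 1746.1 (-0.32) and 624.8 and 538.6 (-0.21). MRPS30 was lower on all 3, at 3086.2 and 2695.3 (-0.19) on the brightest and at -0.45 and -0.68 on the others. MRPS27, of an RNA-binding protein of the small subunit, read 1749.4 and 1533.5 (-0.19), and MRPS33 read 1858.5 and 1644.5 (-0.18). On their brightest probe sets these 4 genes lay within the probe set SD of 0.36, and MRPS16 lay beyond the family's own 0.24. MRPS15, of the S15 counterpart and with the brightest probe set among the MRPS genes, read 4167.9 and 4656.1 (0.16).

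MRPL10 stood lowest in the family. It encodes the protein that anchors the flexible stalk on which translation factors land. Its single probe set gave 1302.8 in control cells and 793.9 in cells given FGF-AS siRNA. That is 1.64-fold lower, a log2 ratio of -0.71 at percentile 3.34 of brighter genes. Its range over the alternatives was -0.71 to -0.65, and those in probe set choice could not alter it. The other measured genes of the stalk and its base were above 0 on their brightest probe sets, and MRPL53 had no probe set annotated to it alone. MRPL12, of the stalk protein itself, read 1376.2 and 1846.3 (0.42), but its dim second probe set, the only one of its pair without the _s_at ending, read 33.7 and 21.7 (-0.52). MRPL11 read 816.2 and 937.9 (0.20) and MRPL54 read 511.1 and 545.4 (0.09).

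The large subunit genes furthest above 0 differed by 1.30-fold to 1.41-fold. MRPL28, of the counterpart of bacterial L28, read 357.4 and 504.7 (0.49). MRPL58, of a peptidyl-tRNA hydrolase built into the ribosome, read 797.1 and 1079 (0.43). MRPL34 read 1012 and 1358.5 (0.42), MRPL14 read 924.2 and 1222.4 (0.40) and MRPL20 read 2667.2 and 3480.1 (0.38), all 3 encoding counterparts of bacterial proteins. These 5 values were above the probe set SD by little, and each rests on 1 measured probe set. MRPL41, of a mitochondria-specific protein, read 3291.3 and 4191.9 (0.35) on its brightest probe set and 832.2 and 872.3 (0.07) on the next.

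Below MRPL10 in size, the lowest large subunit genes lay within the probe set SD of 0.36 but beyond the family's own 0.24. MRPL24, of a protein near the mouth of the exit tunnel, read 1524.7 and 1201.6 (-0.34). MRPL38, of a central protuberance protein, read 1742.7 and 1379.3 (-0.34, and 0.06 on its second probe set). MRPL45, whose protein links the tunnel exit to the inner membrane, read 624.2 and 496.6 (-0.33). MRPL17 read 1179.1 and 966.2 (-0.29) and MRPL48 read 587.8 and 488 (-0.27). MRPL30 read 1938.5 and 1624.2 (-0.25) on its brightest probe set, and all 5 of its measured probe sets were lower, at log2 ratios from -0.95 to -0.21. Their mean was -0.60, which made MRPL30 the gene second to MRPL10 past 1.5-fold lower when probe sets were averaged.

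**Figure D3:**
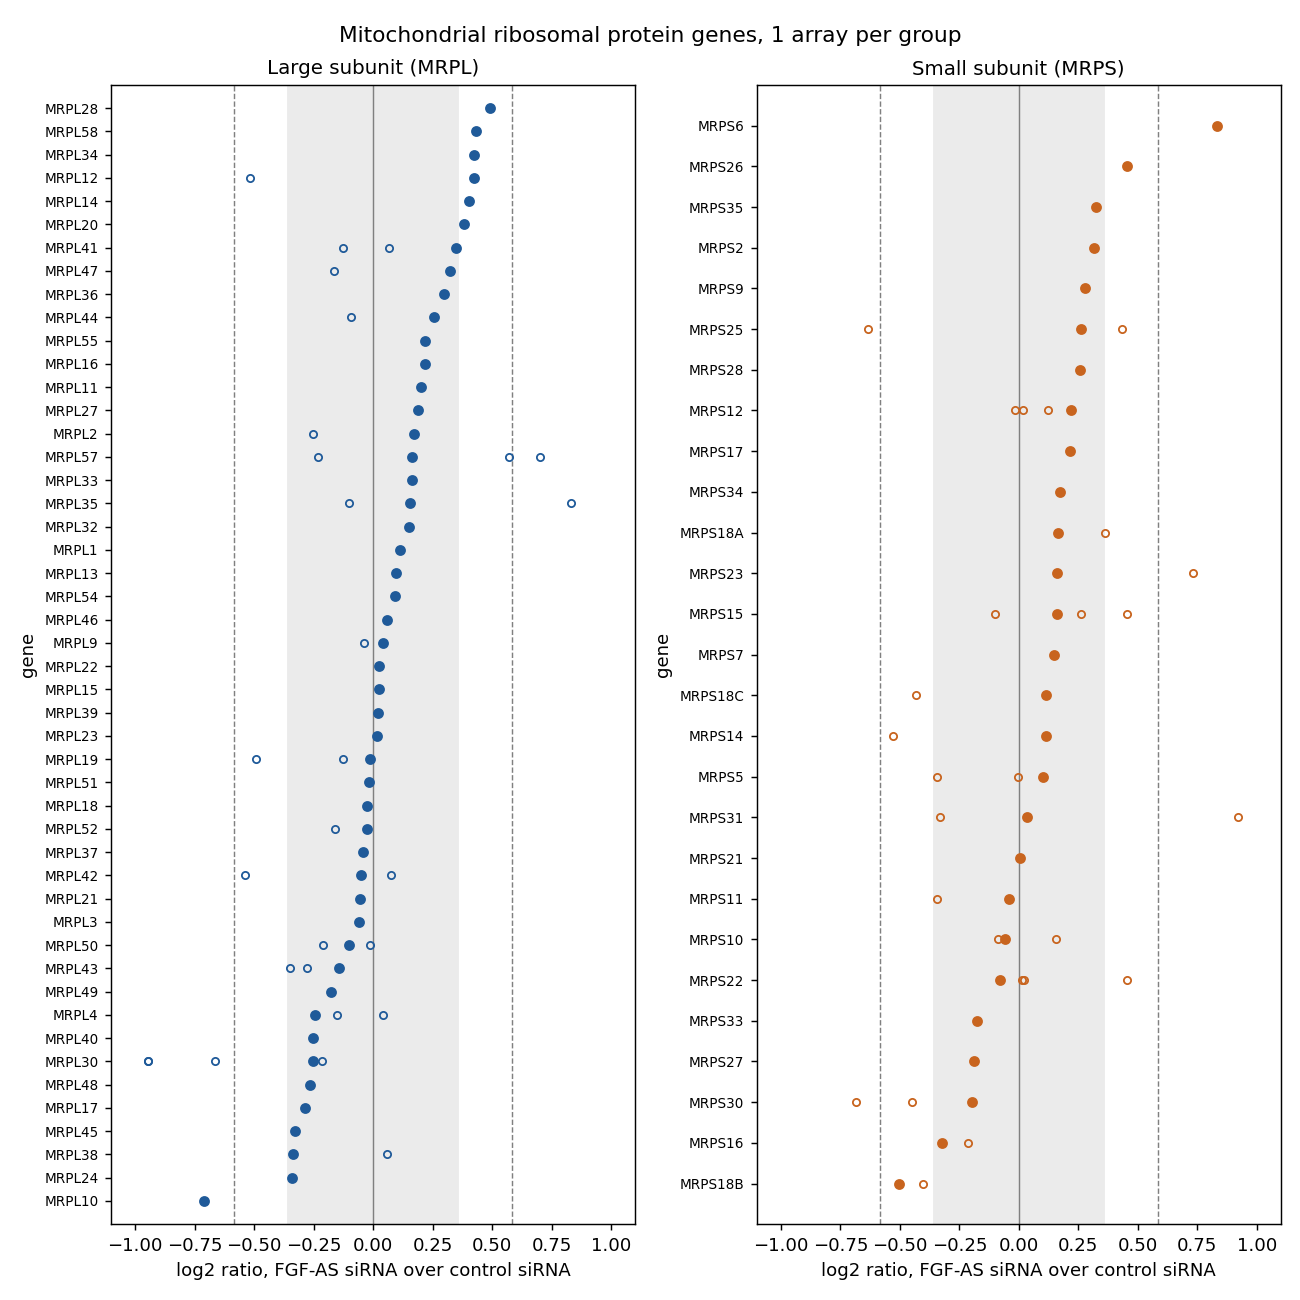
Log2 ratio (x) of every measured probe set of the 75 genes, 48 MRPL genes on the left and 27 MRPS genes on the right, ordered by the brightest probe set (filled); open circles are further measured probe sets, the grey band is the probe set SD of 0.36 either side of 0, and dashed lines mark 1.5-fold. Most filled points lie in the grey band, with MRPS6 at 0.83 and MRPL10 at -0.71 outside the dashed lines, and the open circles often lie on the other side of 0.

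For many genes with several measured probe sets the direction depended on the probe set. Of the 140 probe sets of the 75 genes, 11 were under the signal minimum and 129 were measured, of which 66 were above 0 and 63 below. Several measured probe sets existed for 31 genes, and they lay on both sides of 0 for 20, all above for 2 (MRPS18A and MRPS23) and all below for 9. The other 44 genes had 1 measured probe set. The same counts were not made over all genes. The probe set SD was 0.32 for the 31 genes and 0.49 over all measured probe sets. The 54 further probe sets had a median log2 ratio of -0.11, with 35.2% above 0, and those of all other genes had a median of -0.14, with 37.7% above 0. Among brightest probe sets, the 45 that end in _s_at or _x_at had a median of 0.15 and the 30 others a median of 0.01, where the same split of brighter genes gave -0.02 (3269 genes) and 0.01 (4450 genes). For MRPL genes this split was 0.15 against -0.04, and for MRPS genes 0.12 against 0.16. In 2 genes the probe sets lay at least 1 apart on the log2 scale. MRPS31 read 607.7 and 623.5 (0.04), 502.9 and 398.9 (-0.33), and, on a dim probe set, 17.4 and 38.4 (0.92). MRPS25 read 665.1 and 797.5 (0.26), 113.8 and 71.3 (-0.63), and 47.2 and 66 (0.44).

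By origin and place in the ribosome the groups overlapped widely. Large subunit proteins with a bacterial counterpart had a median log2 ratio of 0.11 (29 genes, 20 above 0), and the mitochondria-specific ones, MRPS30 and MRPS18A included, had a median of -0.04 (20 genes, 8 above 0), which was 0.02 under median centring. In the small subunit the medians were 0.13 (14 genes, 11 above 0) and 0.10 (10 genes, 6 above 0). The genes of the tunnel exit had a median of -0.13 (6 genes), with MRPL24, MRPL45 and MRPL17 below 0 and MRPL47, which read 2166.5 and 2714.8 (0.32), furthest above. Those of the central protuberance had a median of -0.03 (7 genes) and of 0.03 under median centring, from MRPL38 at -0.34 to MRPL58 at 0.43. A list of 13 genes mutated in combined oxidative phosphorylation deficiency, which may be incomplete, had a median of 0.16. Of these 9 (69.2%) were above 0, against 62.7% of the 75 genes and 49.4% of brighter genes. None was past 1.5-fold, and MRPL24 and MRPL12 stood at the ends. With probe sets ending in _s_at or _x_at left out the medians of the large subunit groups were -0.03 and -0.19, that of the central protuberance was -0.25 and that of the deficiency genes was -0.06.

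The promoters were examined because nuclear genes for mitochondrial proteins are known targets of NRF1, of the ETS factor GABP and of YY1. RefSeq windows from 250 bases before to 50 bases after the start (build GRCh38.p14) were given for 67 of the 75 genes, all except MRPL2, MRPL10, MRPL13, MRPL15, MRPL21, MRPL23, MRPL35 and MRPS28. Of the 67, 56 had 1 window and 11 had several, up to 4, for alternative starts, and a gene counted as holding a motif if any of its windows did. The letters CCGGAAG, the core of an ETS site, were found on either strand for 29 of the 67 genes (43.3%), against 16.5% of 15842 protein-coding genes. AAGATGGCG, a YY1 site, was found for 12 (17.9%, against 3.21%). GCGC, any base and TGCGC in a row, the core of an NRF1 site, was found for 9 (13.4%, against 9.66%), and GGGGCGG, the GC box bound by SP1, for 30 (44.8%, against 47.3%). Among genes with 1 window the shares were 42.9% against 15.1% for the ETS core, 21.4% against 2.95% for YY1, 10.7% against 8.98% for NRF1 and 44.6% against 41.9% for the GC box (56 and 11795 genes). No match overlapped a match of another motif. Of the 13 YY1 matches, 9 lay after the start. A match of letters describes the sequence and does not show binding.

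The windows of the small subunit genes at the ends of the range are shown first, as the 250 bases before the start, with matches to these motifs in capitals. That of MRPS6 (chr21:34073328-34073577, plus strand, 84.8% G and C) has, of the 4 motifs, only GC boxes. That of MRPS18B (chr6:30617590-30617839, plus strand, 50.4% G and C) has none of the motifs before the start.
MRPS6: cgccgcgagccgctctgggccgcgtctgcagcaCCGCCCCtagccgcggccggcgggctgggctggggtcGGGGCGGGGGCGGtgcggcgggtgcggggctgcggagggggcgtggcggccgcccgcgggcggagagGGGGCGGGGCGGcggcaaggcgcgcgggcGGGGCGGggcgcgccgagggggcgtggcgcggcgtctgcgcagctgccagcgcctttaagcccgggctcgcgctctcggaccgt
MRPS18B: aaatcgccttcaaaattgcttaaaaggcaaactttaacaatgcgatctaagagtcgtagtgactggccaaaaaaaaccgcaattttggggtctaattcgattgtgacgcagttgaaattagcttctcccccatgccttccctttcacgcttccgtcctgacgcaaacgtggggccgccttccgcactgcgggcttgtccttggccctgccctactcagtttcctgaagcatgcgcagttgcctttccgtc

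Stretches of 30 bases around matches follow for genes above and below 0, since the same letters occurred in both. They are written in the direction of the gene, so a motif on the other strand appears as its reverse complement, and the motif is in capitals. The first 4 hold the ETS core, in MRPL58 (chr17:75012651-75012680, plus strand) and MRPS26 (chr20:3046004-3046033, plus strand), which read higher with FGF-AS siRNA, and in MRPS16 (chr10:73252621-73252650, minus strand) and MRPL48 (chr11:73787800-73787829, plus strand), which read lower.
MRPL58: ggaagcgcccgCCGGAAGcagtcgcaagac
MRPS26: tccccgcgccgCTTCCGGggcacggtggcg
MRPS16: cggatcatccgCTTCCGGagtcgaggtttt
MRPL48: aatttcagaagCTTCCGGaactaaaatgat
Of the genes with YY1 letters that are not shown, MRPL36 (0.30), MRPL32 (0.15), MRPL46 (0.06) and MRPL22 (0.03) were above 0. MRPL52 (-0.03), MRPL42 (-0.05), MRPS10 (-0.06) and MRPL50 (-0.10) were below. In those shown, the letters stood just after the start, in MRPS18A (chr6:43687763-43687792, minus strand), MRPS18B (chr6:30617853-30617882, plus strand), MRPS30 (chr5:44808950-44808979, plus strand) and MRPL38 (chr17:75904859-75904888, minus strand). Among these only MRPS18A was above 0.
MRPS18A: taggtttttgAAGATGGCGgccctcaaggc
MRPS18B: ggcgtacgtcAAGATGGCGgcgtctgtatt
MRPS30: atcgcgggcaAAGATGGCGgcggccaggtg
MRPL38: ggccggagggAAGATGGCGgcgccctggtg
The NRF1 core is shown for MRPL34 (chr19:17305727-17305756, plus strand) and MRPL14 (chr6:44127412-44127441, minus strand), which read higher, and for MRPL17 (chr11:6683402-6683431, minus strand) and MRPL45 (chr17:38296969-38296998, plus strand), which read lower.
MRPL34: cgcctctgttGCGCAGGCGCagaactacaa
MRPL14: tgggcctggcGCGCAGGCGCtaggaagagg
MRPL17: aggctctgatGCGCATGCGCaaacacgttc
MRPL45: ttgtctccctGCGCACGCGCggccgtactc

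The log2 ratios of genes with and without a motif were set side by side. The median was 0.04 with the ETS core and 0.11 without (38 genes), -0.04 with the YY1 letters and 0.12 without (55 genes), 0.16 with the NRF1 core and 0.10 without (58 genes), and 0.15 with the GC box and 0.03 without (37 genes). None of these differences was tested. Of the factors themselves, GABPA, the DNA-binding part of GABP, read 215.8 and 247.3 (log2 ratio 0.19, but -0.97 on its second probe set, 199.9 and 98.9), its partner GABPB1 read 470.1 and 308.6 (-0.60, and 0.07 on its second probe set), NRF1 read 114.1 and 125 (0.13, with others from -0.48 to 0.37) and YY1 read 2970.2 and 2771.8 (-0.10, with others from -0.72 to 0.17). Probe sets of these factor genes thus gave opposite directions, and no direction is given for them.

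Mitochondrial ribosomal protein genes often shared a divergent start region with another gene. Of the 67 genes, 20 (29.9%) had a protein-coding neighbour on the opposite strand that started within 1000 bases upstream, against 12.3% of the 15842 protein-coding genes. These 20 genes formed 19 pairs, 1 of them MRPL46 with MRPS11, a large and a small subunit gene, which read 934.2 and 974.4 (0.06) and 1018.8 and 990.7 (-0.04). The partner was measured in 18 pairs. Both genes lay on the same side of 0 in 5 and on opposite sides in 13 (72.2%), where 48.5% of the 670 measured divergent pairs of all genes lay on opposite sides. The count rests on signs, and several ratios were near 0, such as those of MRPL51 (-0.02), MRPS11 (-0.04) and MRPL46 (0.06). It was 12 under median centring and was not tested. MRPS12, of the decoding-centre protein S12, read 1766.6 and 2058.9 (0.22), and its partner SARS2, the mitochondrial seryl-tRNA synthetase gene, read 210.6 and 184.5 (-0.19). MRPL57 read 2819.1 and 3155.8 (0.16) and its partner SKA3, a kinetochore gene, read 167.7 and 225.3 (0.41). MRPS18B stood at -0.50 and its partner PPP1R10, a phosphatase regulator gene, at 0.08 (256.3 and 271.2).

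**Figure D4:**
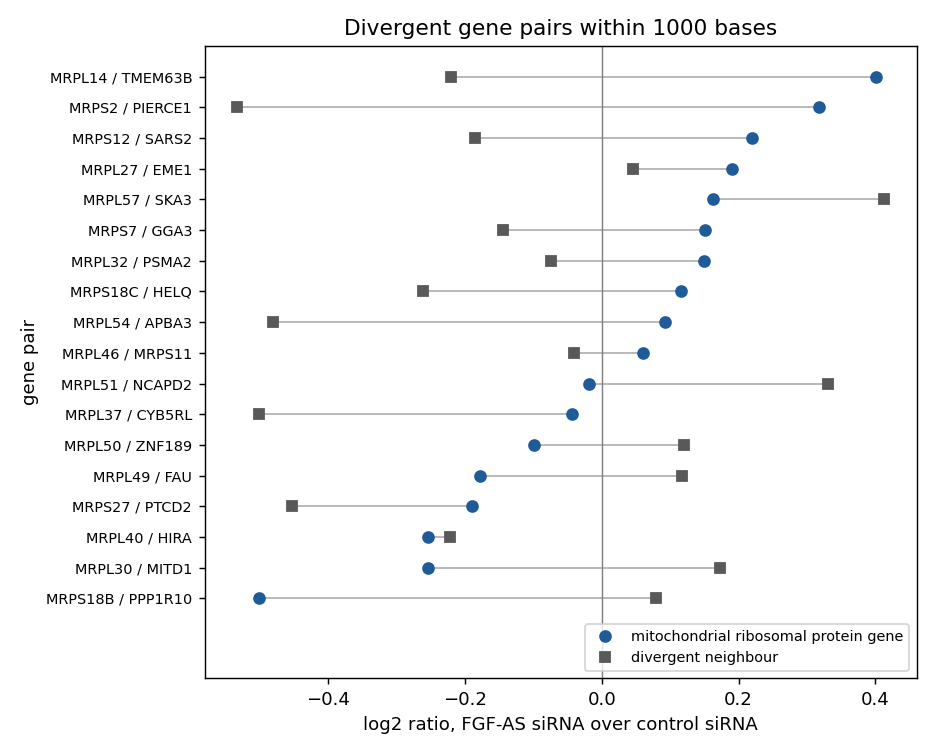
Log2 ratio (x) of each mitochondrial ribosomal protein gene (circle) and of its divergent neighbour (square) for the 18 pairs with a measured partner (y), ordered by the first gene, with MRPS11 as the neighbour of MRPL46. In 13 pairs the symbols lie on opposite sides of 0, and the widest gaps are those of MRPS2 with PIERCE1 (0.32 and -0.53) and MRPL14 with TMEM63B (0.40 and -0.22).

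Genes that act with the mitochondrial ribosome or on its genes were taken from 7 lists, which also hold mitochondrial DNA expression genes, nuclear regulators and inner membrane quality control genes. Of them 79 were measured, with a median log2 ratio of 0.02. Of these 46 were above 0, 1 was at least 1.5-fold higher and 3 were at least 1.5-fold lower, 5.06% against 11.5% of brighter genes, the level of 73 of the 79, and 17.5% of measured genes. The 4 measured ribosomal proteins without an MRP symbol had a median of 0.04, with DAP3, of a GTP-binding small subunit protein, at 2092.2 and 2549.5 (0.28), and at 0.84 and 0.23 on its dimmer probe sets. The 12 translation factors had a median of 0.05, from the recycling factor MRRF at 892.2 and 677.7 (-0.39) to the release factor MTRF1L at 575.8 and 709.8 (0.30, and -0.04 on the second measured probe set). This list turned to -0.10 when probe sets were averaged and to -0.27 with probe sets ending in _s_at or _x_at left out.

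The 21 measured ribosome assembly genes had a median of 0.03. MTG1, a GTPase gene of large subunit assembly, read 549.4 and 298 (-0.87, 1.83-fold lower). MTERF3, which also acts in assembly, read 425.4 and 639.9 (0.58), just short of 1.5-fold. Each of these values rests on 1 measured probe set. The 15 mitochondrial aminoacyl-tRNA synthetase genes had a median of -0.05 (0.00 under median centring), with 10 below 0. The ends were PARS2 at 128.6 and 83.6 (-0.59, on 1 measured probe set) and AARS2 at 157.8 and 189 (0.25, but -0.67 on its dim probe set). The 11 genes of mitochondrial DNA expression had a median of 0.11, with 9 (81.8%) above 0, against 48.1% of measured genes. Lowest was POLRMT, the mitochondrial RNA polymerase, at 532.7 and 496.6 (-0.10, and -1.05 on a dim probe set). Highest was SLIRP, an mRNA stability factor, at 5786.6 and 7452.2 (0.36). The direction depended on the probe sets, since TFAM (0.24 to -0.15), POLG (0.33 to -0.27) and SSBP1 (0.05 to -0.79) turned below 0 when these were averaged. The 9 regulators of nuclear genes for mitochondria had a median of 0.19, with 2 past 1.5-fold (22.2%, against 17.5% of measured genes). These were GABPB1 at -0.60, but at 0.07 on its second probe set, and the dim coactivator gene PPARGC1A at 52.5 and 87 (0.67), on 1 measured probe set. The 7 genes of inner membrane insertion and quality control had a median of 0.01, from the prohibitin gene PHB1 at 4349.7 and 3545 (-0.29, but 0.16 on its second probe set) to the protease gene CLPP at 745 and 937.7 (0.33). No single-symbol probe set named a gene encoded in mitochondrial DNA, so those transcripts were not analysed here.

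**Figure D5:**
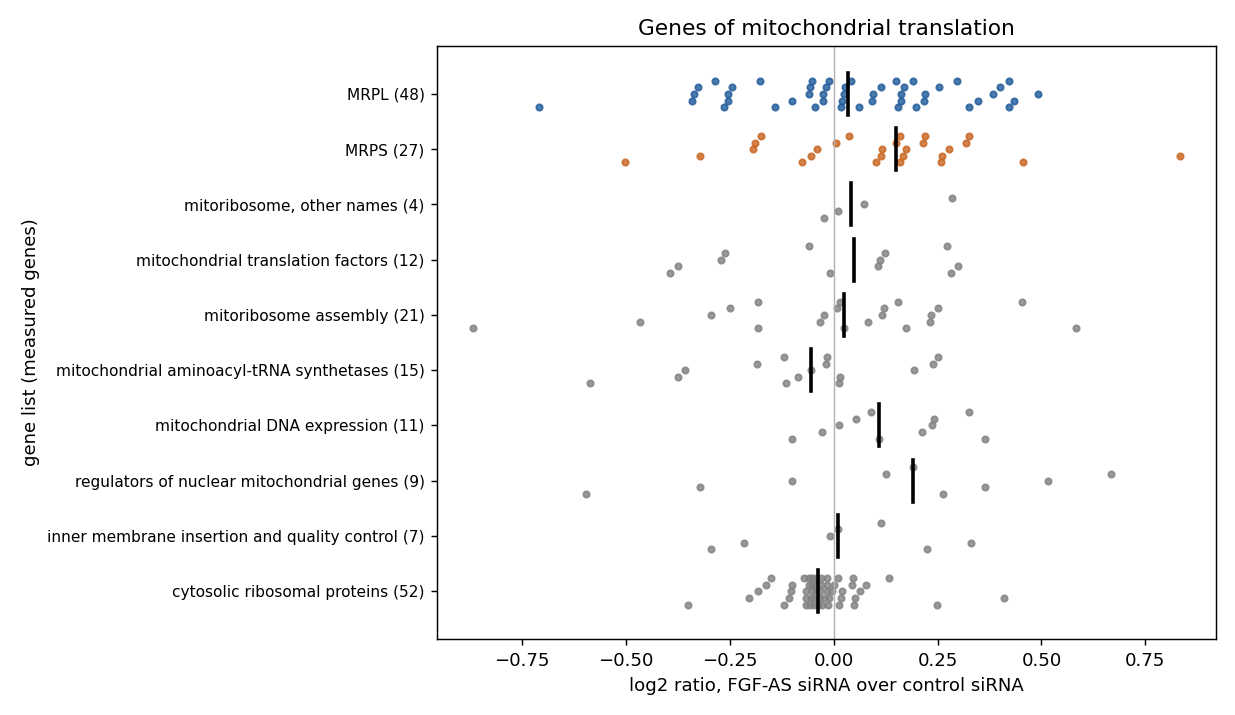
Log2 ratio (x) of each measured gene (points) and the list median (black bar) for MRPL, MRPS, 7 lists of other genes tied to mitochondrial translation and the cytosolic ribosomal proteins (y, number of genes in brackets). The MRPS median is 0.15, the MRPL median 0.03 and the cytosolic median -0.04, and the cytosolic points lie closest together.

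Cytosolic ribosomal protein genes, which belong to the other ribosome of the cell, differed less between arrays than the mitochondrial ones. The 52 with a probe set annotated to them alone had a median log2 ratio of -0.04 (0.02 under median centring, SD across genes 0.11), and others were not covered. The ends were the dim RPLP2 (45.3 and 34.2, -0.35) and RPL36A (25.2 and 35.5, 0.41). Of the 52, 14 (26.9%) were above 0 and none was past 1.5-fold, against 49.4% and 11.5% of brighter genes, the level of 49 of them. The large and small subunit medians were -0.03 (32 genes) and -0.04 (20 genes). The cytosolic probe sets read up to 21359.6 at the top of the signal range, where the mitochondrial ones ended at 5923. The part of this in the smaller spread was not tested.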

How the data were processed

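RNA from 2 transfected Seg-1 cultures, 1 per siRNA, was hybridised to 1 array each. The authors deposited a linear signal intensity per probe set, made with GCOS and MAS5 per the submitters' processing notes; the scaling between the arrays is not stated in what was used here. Control probe sets (62) were left out. Probe sets with 1 gene symbol (41091, of which 41037 matched a RefSeq gene) were used, and a gene was represented by its brightest. The offset (6.1) was set at the 25th percentile of the signals, the minimum of 23.9 the median and the stricter minimum of 145.2 the 75th percentile of mean signals. The ratios were computed with Python 3.11.15, pandas 2.3.3 and NumPy 2.4.6 by scripts tested on simulated data. Genes were named by rank of log2 ratio within each subunit (6 highest and 6 lowest MRPL, 4 and 4 MRPS), by a difference of at least 1.5-fold, by the ends of the signal range and by disagreement between probe sets; other members were named for their class or promoter. The members and lists were chosen with earlier results of these data known, and the motif letters and the printed stretches after the values were seen. Promoter sequences and gene positions came from RefSeq (GRCh38.p14). The alternatives were other offsets, signal minimums, probe set choices and array scalings.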

Additional observations from a re-analysis of the deposited data

How the results depend on the processing

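With 1 array per group no replicate could be left out. No paired analysis was possible because each group holds 1 array. Averaging the measured probe sets of a gene gave 2 genes at least 1.5-fold lower, MRPL10 and MRPL30. Leaving out probe sets ending in _s_at or _x_at gave a median log2 ratio of -0.057 for MRPL genes, a difference of MRPL minus MRPS medians of -0.21, 18 genes above 0 and 2 genes at least 1.5-fold higher, MRPS6 and MRPL35. This setting holds 41 genes, 43.9% of them above 0 against 48.2% of measured genes, and the MRPL35 value rests on a dim probe set (63.2 and 117.2). Centring on the median of all probe sets gave median log2 ratios of 0.090 (MRPL) and 0.21 (MRPS). Over these alternatives the MRPS median stayed above the MRPL median, by 0.08 to 0.21, but this order did not hold in every subset. Among genes whose brightest probe set ends in _s_at or _x_at, the MRPL median was 0.15 and the MRPS median 0.12. Over all measured probe sets the medians were -0.02 (MRPL) and 0.04 (MRPS). Counting MRPS30 and MRPS18A with the large subunit, chosen after seeing the data, left that difference at 0.12. Of the 75 genes, 5 moved by at least the probe set SD under an alternative: with those probe sets left out, MRPL12 turned from 0.42 to -0.52 (-0.05 when averaged), MRPS14 from 0.11 to -0.53 and MRPS5 from 0.10 to -0.34, while MRPL42 went from -0.05 to -0.54 and MRPL35 from 0.15 to 0.83. Of the 79 list genes 12 moved, 7 of them across 0, among them AARS2 (-0.21 when averaged), GABPA (-0.39) and POLG (0.33 to -0.27); POLRMT went to -0.57 and DAP3 to 0.84. The cause was not tested. Restricting the motif search to genes with 1 window was also chosen after seeing the data. The size of an array-to-array difference between cultures of 1 group is unknown, which limits every value.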
